A study of Mus musculus with 6 samples.

Results

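The genes described here are 35 genes of sebocyte and fatty acid synthesis, out of 36 looked for and 22180 genes measured in hair follicle stem cells of mouse skin. They were chosen by symbol: a gene entered when the array annotation gave a feature exactly 1 symbol and that symbol was on the list, and each gene was read from its brightest feature by the mean of 6 arrays. Scd2 had 0 such features and was left out. All others had 1, except Fabp5 with 4. Wild-type mice (WT) and transgenic K14-sPLA2-IIA mice (TG) were compared at postnatal day 49, with 3 arrays for each of the 2 genotypes, and no treatment is given in the labels. By the protocols in the labels the skin cells were sorted for CD34 and for α6-integrin, and the RNA was hybridised to Affymetrix GeneChip Mouse Gene 2.0 ST arrays. The transgene is named for the keratin 14 promoter, which drives expression in basal cells of the epidermis and in the follicle's outer root sheath. The labels do not say whether a sample was 1 mouse or a pool, so p-values measure the spread between these samples only. Values are log2 expression values, and a difference of 1 corresponds to a 2-fold change. Triplets of values follow the arrays numbered 1, 2 and 3 of a genotype.

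Fatty acids are built from acetyl-CoA by a carboxylase and a synthase, then lengthened by elongases and made unsaturated by desaturases. Sebocytes, the lipid-filled cells of the sebaceous gland that opens into the hair follicle, add reductases and acyltransferases that turn these fatty acids into wax esters and triglycerides, and burst to release them as sebum. The enzyme made by the transgene, secreted phospholipase A2 group IIA, releases fatty acids from membrane phospholipids. The question of the design was which genes the transgene's presence altered in these cells.

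Pla2g2a, the gene of that enzyme, read 12.39 to 12.61 on the TG arrays and 5.75 to 6.77 on the WT arrays (adjusted p = 0.00255 in limma), and it was the 1 gene past the threshold of 0.05. The labels number the arrays of each genotype 1 to 3, and the arrays numbered 3 stood apart. On a first principal component that held 64.6% of the variance they scored 50.2 (WT) and 53.3 (TG), against -34.3 to -2.78 for the other arrays. Of the markers used in the sort, Itga6, which encodes α6-integrin, read 10.01 to 10.49, while Cd34 read 9.78, 9.89 and 13.07 in WT and 11.57, 9.65 and 12.42 in TG. The basal and bulge keratin genes Krt14 and Krt15 read 13.80 to 14.24 and 13.21 to 13.50.

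No gene of the set differed between TG and WT past the threshold. Of the 35 genes, 17 had a TG minus WT difference above 0 and 18 below (47.9% and 52.1% of all genes did), and the median was -0.034, against -0.0075 over all genes tested. By limma with Benjamini-Hochberg adjustment, 0 were higher (0.00451% of all genes were) and 0 were lower (0% of all genes), with an adjusted p of 0.99996 for each. At an unadjusted p under 0.05 the set again had 0 higher and 0 lower, where all genes had 1.93% and 0.843%. The differences ran from -0.95 for Dgat2 to 0.67 for Fads1. All 3 TG arrays lay above all 3 WT arrays for 1 gene, Plin2 (3.99% of all genes did), and below for 0 genes (3.21%).

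With the replicate number as a block, 0 genes of the set passed the adjusted threshold (0.00451% of all genes), and 3 higher and 3 lower had an unadjusted p under 0.05 (4.59% and 3.86% of all genes). The higher genes were Fads1, Far2 and Apoc1, and the lower ones Dgat2, Acacb and Scd3. In each of these 6 the difference had the same sign within all 3 numbers. So it had in 7 genes of the set above 0 (14.6% of all genes) and 4 below (16.5%), and the plot of each gene's difference by array number shows which. Without WT array 3 the unpaired test gave 3 higher and 7 lower at an unadjusted p under 0.05 (2.61% and 2.17% of all genes). Without TG array 2 it gave 1 and 2 (2.48% and 1.43%), and without TG array 3 it gave 0 and 1 (1.98% and 0.951%).

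**Figure D1:**
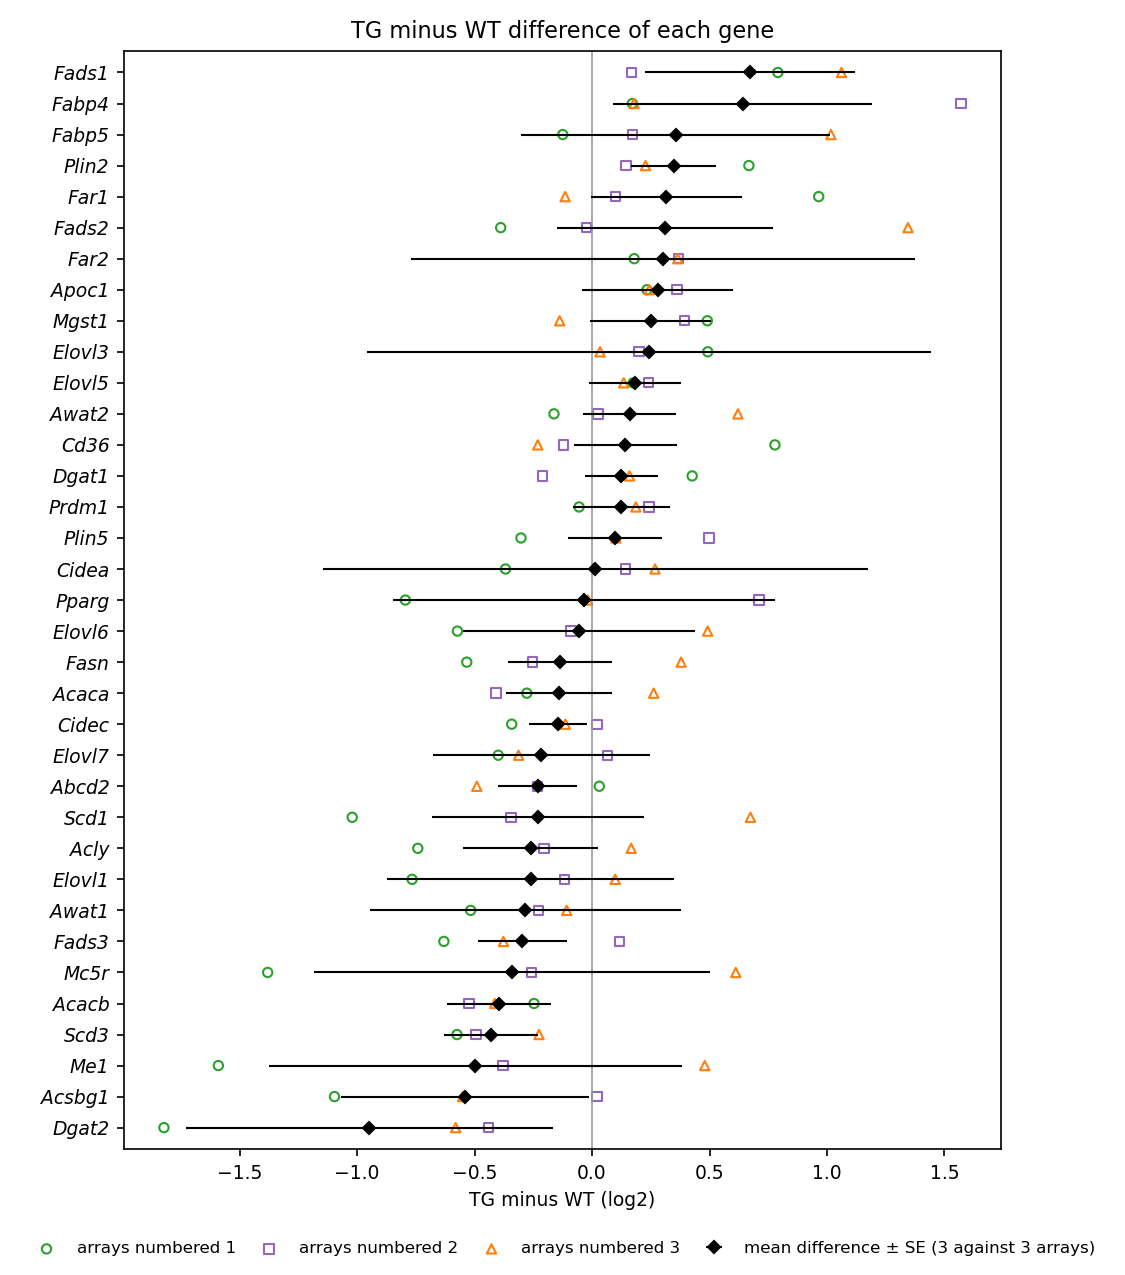
Difference between TG and WT for each of the 35 genes, on the log2 scale, as the mean over 3 against 3 arrays with its SE (diamonds and bars) and within each replicate number (open symbols). The differences run from Dgat2 at -0.95 to Fads1 at 0.67. The bars of most genes cross 0, though not those of Dgat2 and Fads1, and those of Elovl3, Cidea and Far2 are longer than 1 unit to each side.

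Over the 6 arrays, both genotypes together, the median range of a gene of the set was 1.19 log2 units, against 0.586 over all genes. A range above that all-gene median was found for 33 of the 35 genes, Cidec and Dgat1 being the exceptions. In all, 20 of the 35 genes spanned more than 1 log2 unit, or 57.1%, against 18.5% of all genes, and 10 spanned more than 2, or 28.6% against 3.12%. An F test of the replicate number, with genotype as a term in limma, called 10 of them at an adjusted p under 0.05, or 28.6% (6.96% of all genes). At an unadjusted p under 0.05 there were 21, or 60.0% (30.2% of all genes). The 10 genes were Far2, Elovl3, Cidea, Awat1, Elovl7, Elovl1, Apoc1, Pparg, Fabp5 and Dgat2. In all 10 the array numbered 3 was the lowest of its genotype in both WT and TG. This held for 17 genes of the set, or 48.6% (34.5% of all genes), and the array numbered 3 was the highest in both genotypes for 8, or 22.9% (23.5% of all genes).

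The test as a whole rested on few arrays. Without WT array 2, WT array 3, TG array 2 or TG array 3, in turn, 0 of the 10 passed, and so did 0 of all 22180 genes. With no moderation 0 of all genes passed, and with all features tested 0 of 41345 did, so these losses are not particular to the 10. Without WT array 1 there were 14 calls in the set (8.31% of all genes) and without TG array 1 there were 15 (9.99% of all genes), all 10 among them.

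**Figure D2:**
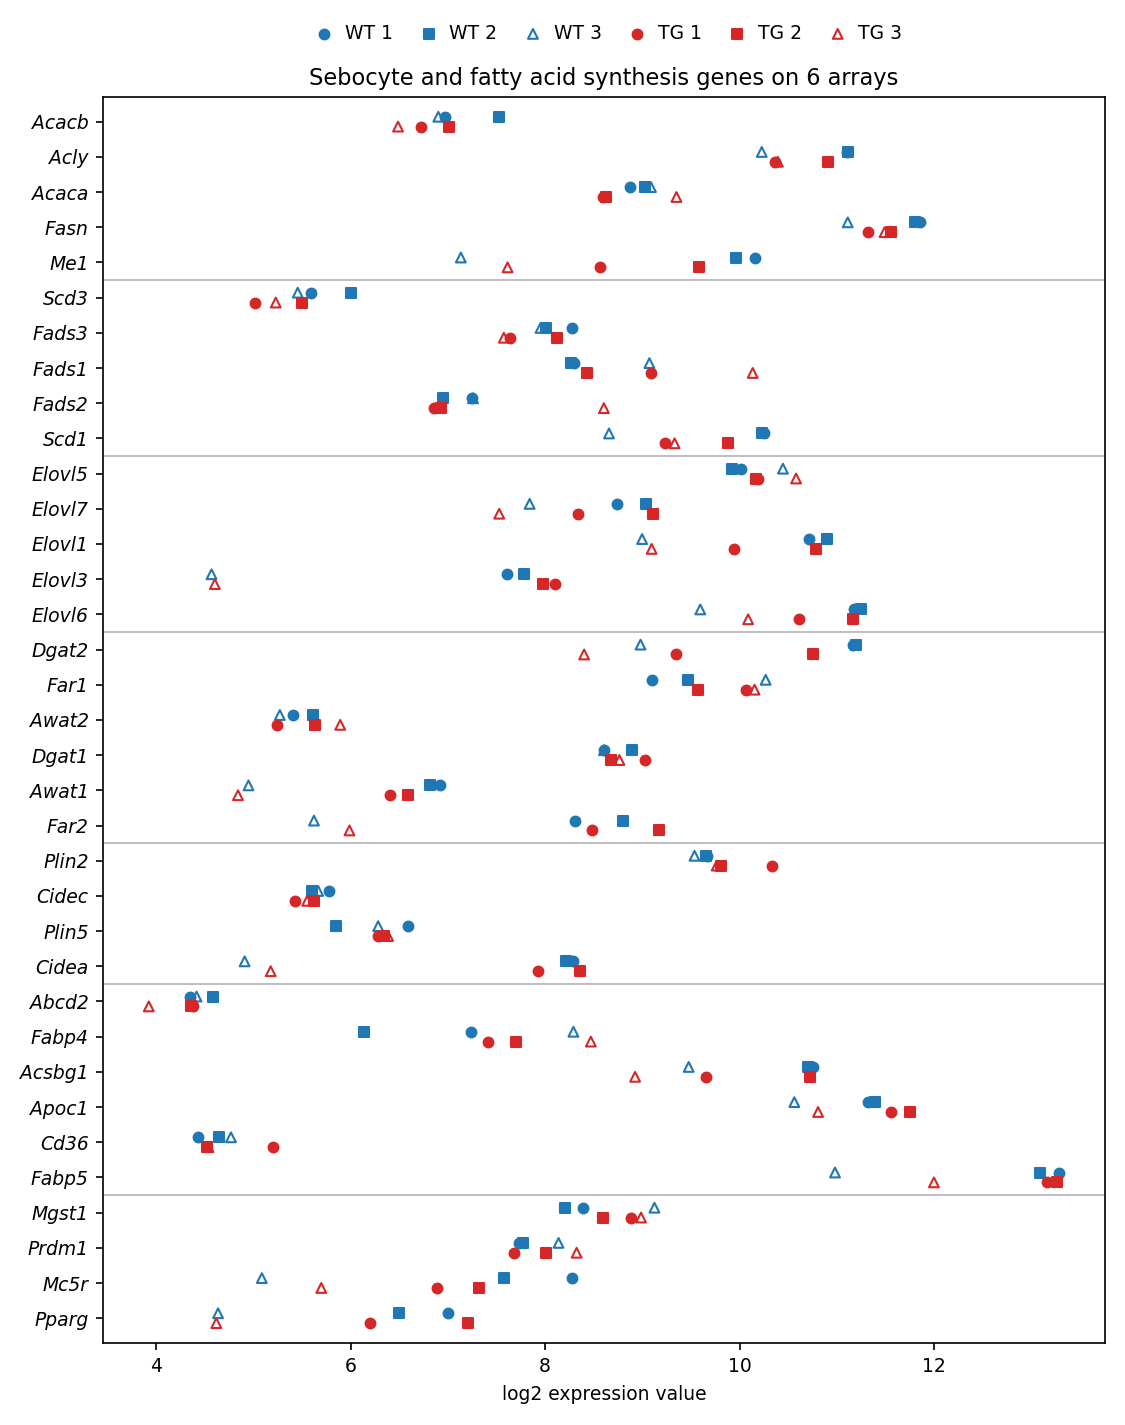
Log2 expression value of the 35 genes on each array (WT blue, TG red; circle, square and open triangle for the arrays numbered 1, 2 and 3), ordered by role between grey lines. For Far2, Elovl3, Cidea and Awat1 the open triangles of both genotypes lie far to the left of the other 4 arrays, while WT and TG symbols mix.

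The first group supplies the building blocks. Acly makes acetyl-CoA from citrate, Acaca and Acacb encode the acetyl-CoA carboxylases, Me1 yields NADPH and Fasn is the fatty acid synthase. All 5 had a TG minus WT difference below 0 (52.1% of all genes), with a median of -0.26 and none past the threshold. On the arrays numbered 3, however, Acly, Acaca, Fasn and Me1 were higher in TG, by 0.17 to 0.48. Fasn read 11.86, 11.81 and 11.11 in WT and 11.32, 11.55 and 11.49 in TG. Its difference of -0.14 ± 0.22 (SE) was smaller than the spread in WT (SD 0.42, n = 3), and the genotypes overlapped.

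Acacb, the carboxylase at the mitochondrial membrane, read 6.98, 7.53 and 6.90 in WT and 6.73, 7.01 and 6.49 in TG, a difference of -0.40 ± 0.22 (SE). TG was lower within each number, by 0.25 to 0.52 in size, although TG array 2 lay above WT arrays 1 and 3. Acly read 11.10, 11.12 and 10.23 in WT and 10.36, 10.91 and 10.39 in TG, a difference of -0.26 ± 0.29 (SE). WT array 3 was the lowest of the 6 here. Me1 was the most variable of the group. It read 10.16, 9.96 and 7.13 in WT and 8.57, 9.58 and 7.61 in TG, so that both arrays numbered 3 lay below all others and TG array 1 lay between. Acaca went the other way, with its highest value of 9.35 on TG array 3 and 8.59 to 9.09 elsewhere.

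Among the desaturases, Scd1 and Scd3 place the first double bond in saturated fatty acids, and Fads1 and Fads2 act on polyunsaturated ones. Fads3 belongs to the same family. Fads1 had the largest difference of the set on the higher side, at 0.67 ± 0.45 (SE), or 1.59-fold. It read 8.30, 8.26 and 9.07 in WT and 9.09, 8.43 and 10.13 in TG. TG exceeded WT within each number, by 0.17 to 1.06, but TG array 2 lay below WT array 3. Paired by number its adjusted p was 0.538 in limma.

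Fads2 followed a different course, with 8.60 on TG array 3 and 6.86 to 7.26 on the other 5 arrays. Its mean difference of 0.31 ± 0.46 (SE) therefore came from 1 array, and it was -0.26 without TG array 3. Scd1 read 10.25, 10.23 and 8.66 in WT and 9.23, 9.89 and 9.33 in TG, a difference of -0.23 ± 0.45 (SE). The gap of TG to WT was -1.02 on the arrays numbered 1 and 0.67 on those numbered 3, so the sign depended on the pair. Scd3 read 5.59, 6.0 and 5.46 in WT and 5.02, 5.51 and 5.23 in TG, with a difference of -0.43 ± 0.20 (SE). All 3 pairs were lower in TG, and TG array 2 lay just above WT array 3. Except on WT array 2, the Scd3 values lay below the array medians of 5.90 to 5.99. Fads3 read 8.27, 8.01 and 7.95 in WT and 7.64, 8.13 and 7.58 in TG, a difference of -0.30 ± 0.19 (SE) in which TG array 2 again fell within the WT range. Genes of the Scd family are similar in sequence, and the probes' specificity is not given in the sources used here, so their values may not be fully separate.

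The elongases lengthen fatty acids, and each prefers certain chains. Elovl3, known from sebaceous gland and brown fat, showed the widest contrast among them. It read 7.61, 7.78 and 4.57 in WT and 8.10, 7.98 and 4.61 in TG. Against the mean of the other 2 arrays, the array numbered 3 was 8.72-fold lower in WT and 10.8-fold lower in TG (adjusted p = 0.018 in the F test). Both values on the arrays numbered 3 lay below the array medians of 5.90 to 5.99. So did those of Awat1, Cidea and Pparg, described below. No detection values were used, so the folds of these genes are approximate. The TG minus WT difference was 0.24 ± 1.202 (SE), and TG lay above WT within each number by 0.034 to 0.49.

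Elovl1, an elongase of very long saturated chains, read 10.71, 10.90 and 8.997 in WT and 9.95, 10.78 and 9.10 in TG (adjusted p = 0.0312 in the F test). Elovl7 read 8.74, 9.04 and 7.84 in WT and 8.34, 9.11 and 7.53 in TG (adjusted p = 0.0287 in the F test). In both genes the arrays numbered 3 were the lowest and TG array 1 was the next lowest. Elovl6, which extends palmitate, had the same order at 9.60 and 10.09 on the arrays numbered 3 and 10.61 to 11.25 on the others, and did not pass (adjusted p = 0.0593 in the F test). Elovl5, which extends polyunsaturated chains, ran opposite. It read 10.02, 9.92 and 10.45 in WT and 10.19, 10.17 and 10.58 in TG, with the arrays numbered 3 highest and a TG minus WT difference of 0.18 ± 0.20 (SE).

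The wax and triglyceride enzymes split in the same manner. Far1 and Far2 reduce fatty acids to fatty alcohols, Awat1 and Awat2 join the alcohols to fatty acids as wax esters, and Dgat1 and Dgat2 complete triglycerides. Far2 read 8.30, 8.80 and 5.62 in WT and 8.48, 9.17 and 5.99 in TG. The array numbered 3 was 7.62-fold lower than the mean of the others in WT and 7.15-fold lower in TG (adjusted p = 0.018 in the F test). Awat1 read 6.92, 6.82 and 4.95 in WT and 6.41, 6.59 and 4.84 in TG, or 3.78-fold and 3.15-fold lower on the array numbered 3 (adjusted p = 0.018 in the F test). For both genes the other 4 arrays lay within about 1 unit of each other.

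Since Far2, Awat1 and Elovl7 had low values on the same 2 arrays, the promoter windows of these genes are shown, from 250 bases before to 50 after the start in RefSeq (GRCm38.p6). Elovl1 and Pparg, which also passed the F test and were low there, had windows too that are not shown. Plin2, the gene whose genotypes did not overlap, is shown beside them. Capitals mark every match, on either strand, to 7 motifs. The CCAAT box binds the factor NF-Y. The GC box was searched as GGGCGG and the core promoter box as TATAAA. A half-site of nuclear receptors such as PPARs was searched as AGGTCA, and their paired site as that half-site repeated with 1 base between, so that both overlap. The sterol regulatory element was searched as TCACNCCAC and the E-box as CACGTG. A match on the other strand reads as its reverse complement.
Far2, chr6:148047166-148047465, + strand: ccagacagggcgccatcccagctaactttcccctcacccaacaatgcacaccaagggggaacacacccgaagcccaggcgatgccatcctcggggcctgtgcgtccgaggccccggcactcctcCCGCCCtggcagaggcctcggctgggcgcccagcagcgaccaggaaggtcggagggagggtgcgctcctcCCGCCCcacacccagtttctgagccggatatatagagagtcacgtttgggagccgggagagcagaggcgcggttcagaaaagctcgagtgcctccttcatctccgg
Awat1, chrX:100571997-100572296, + strand: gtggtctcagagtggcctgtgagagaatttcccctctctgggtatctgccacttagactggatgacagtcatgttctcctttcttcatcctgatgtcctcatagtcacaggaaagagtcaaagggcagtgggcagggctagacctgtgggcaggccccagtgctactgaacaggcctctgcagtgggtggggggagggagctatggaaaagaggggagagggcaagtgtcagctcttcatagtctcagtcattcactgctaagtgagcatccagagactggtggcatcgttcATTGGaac
Elovl7, chr13:108214154-108214453, + strand: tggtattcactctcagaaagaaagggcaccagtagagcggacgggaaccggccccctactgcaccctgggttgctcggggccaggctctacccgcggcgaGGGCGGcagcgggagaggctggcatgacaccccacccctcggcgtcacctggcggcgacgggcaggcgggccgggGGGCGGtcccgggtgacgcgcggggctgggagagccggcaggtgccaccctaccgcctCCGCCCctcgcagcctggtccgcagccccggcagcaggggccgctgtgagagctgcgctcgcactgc
Plin2, chr4:86670010-86670309, - strand: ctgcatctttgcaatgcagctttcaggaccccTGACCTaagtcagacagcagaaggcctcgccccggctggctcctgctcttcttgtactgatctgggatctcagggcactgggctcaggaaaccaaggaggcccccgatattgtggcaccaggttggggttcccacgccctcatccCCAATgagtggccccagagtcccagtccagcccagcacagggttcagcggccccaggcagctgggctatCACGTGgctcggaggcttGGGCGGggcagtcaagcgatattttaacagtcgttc
The Far2 window held 2 GC boxes, that of Elovl7 held 3, and that of Awat1 held 1 CCAAT box just after the start. The Plin2 window held 1 each of the CCAAT box, GC box, half-site and E-box. The genes past the F test had 8 windows of 5 genes, and 3 of these (37.5%) held the half-site. All 3 belonged to Elovl1 or Pparg. Of the 24 windows of genes not past it, 7 did (29.2%). The table had windows for 24 of the 35 genes, 32 windows in all. The half-site stood in 31.2% of these 32 (16.3% of all 32851 windows), the CCAAT box in 56.2% (37.4%), the GC box in 53.1% (35.7%), the TATAAA box in 6.25% (13.6%) and the E-box in 6.25% (7.15%). The sterol regulatory element stood in 0 of them (1.24% of all windows), and so did the paired half-site (0.0396%). A match of letters does not show that a factor binds.

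Far1, the other reductase, ran opposite to Far2. It read 9.10, 9.47 and 10.27 in WT and 10.06, 9.57 and 10.15 in TG, highest on the array numbered 3 in both genotypes, with a TG minus WT difference of 0.32 ± 0.32 (SE). Awat2 spanned 0.648 log2 units, slightly above the all-gene median of 0.586, at 5.41, 5.61 and 5.27 in WT and 5.25, 5.63 and 5.89 in TG. Its difference of 0.16 ± 0.20 (SE) lay within the spread of the TG arrays (SD 0.33, n = 3). All Awat2 values lay below the array medians of 5.90 to 5.99, where a dip may not show. Dgat1 varied little, between 8.61 and 9.03 over all arrays. Dgat2 had the largest difference of the set on the lower side. It read 11.17, 11.20 and 8.98 in WT and 9.35, 10.75 and 8.40 in TG, a difference of -0.95 ± 0.78 (SE) that the spread within WT (SD 1.27, n = 3) exceeded. TG was lower within each number, by 1.82, 0.44 and 0.58 in size. It passed the F test of the number (adjusted p = 0.0416).

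Of the lipid droplet genes, Plin2 coats droplets in most cells that hold them. It read 9.66, 9.66 and 9.54 in WT and 10.33, 9.80 and 9.76 in TG. All TG arrays lay above all WT arrays, by 0.35 ± 0.18 (SE) or 1.27-fold on average, without passing the threshold (unadjusted p = 0.1002 and adjusted p = 0.99996 in limma). TG array 1 held most of the gap. Cidea, which promotes droplet fusion and is abundant in sebaceous gland and brown fat, read 8.29, 8.22 and 4.91 in WT and 7.92, 8.36 and 5.18 in TG. The array numbered 3 was 10.2-fold lower than the mean of the others in WT and 7.80-fold lower in TG (adjusted p = 0.018 in the F test), while the genotypes differed by 0.014 ± 1.16 (SE). Its relative Cidec read 5.78, 5.604 and 5.67 in WT and 5.43, 5.63 and 5.55 in TG, with no such dip. All Cidec values lay below the array medians of 5.90 to 5.99, where a dip may not show. Plin5, a droplet coat of fat-burning tissues, ranged from 5.85 to 6.59.

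The next group takes up, binds, activates and moves fatty acids. Fabp5, the epidermal fatty acid binding protein gene, read 13.28, 13.08 and 10.98 in WT and 13.16, 13.26 and 12.00 in TG (adjusted p = 0.0396 in the F test). All 4 of its features had their lowest value in each genotype on the array numbered 3. Apoc1, an apolipoprotein gene, read 11.32, 11.39 and 10.56 in WT and 11.56, 11.75 and 10.81 in TG (adjusted p = 0.0351 in the F test). Its TG minus WT difference was 0.28 ± 0.32 (SE), with TG higher within each number by 0.23 to 0.36. Acsbg1, an acyl-CoA synthetase gene, read 10.75, 10.70 and 9.48 in WT and 9.65, 10.72 and 8.93 in TG, lowest on the array numbered 3 in both genotypes without a call (adjusted p = 0.0560 in the F test).

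Fabp4, the fatty acid binding protein of fat cells and capillaries, ran the other way. It read 7.24, 6.13 and 8.29 in WT and 7.41, 7.71 and 8.47 in TG, highest on the array numbered 3 in both genotypes. Its TG minus WT difference of 0.64 ± 0.55 (SE) came mainly from the arrays numbered 2, which were 1.57 apart. Abcd2, a peroxisomal transporter gene, read 4.35, 4.59 and 4.42 in WT and 4.39, 4.36 and 3.93 in TG, and Cd36, the fatty acid receptor, read 4.43 to 5.21. Both were among the lowest values of the set, and no detection values were used, so neither is called absent.

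Pparg, the nuclear receptor that drives sebocyte and fat cell differentiation, read 6.997, 6.5 and 4.64 in WT and 6.20, 7.21 and 4.62 in TG. The array numbered 3 was 4.32-fold lower than the mean of the others in WT and 4.25-fold lower in TG (adjusted p = 0.0390 in the F test), and the genotypes differed by -0.034 ± 0.81 (SE). Mc5r, the melanocortin receptor through which sebum output is regulated, read 8.27, 7.58 and 5.09 in WT and 6.89, 7.32 and 5.70 in TG (adjusted p = 0.0593 in the F test). Prdm1, the transcriptional repressor gene also called Blimp1, read 7.73, 7.77 and 8.14 in WT and 7.68, 8.01 and 8.32 in TG. Mgst1, a glutathione transferase gene long used as a sebocyte marker, read 8.39, 8.21 and 9.12 in WT and 8.88, 8.60 and 8.99 in TG. Prdm1 and Mgst1 thus had their highest values on the arrays numbered 3, opposite to Pparg and Mc5r, and differed between genotypes by 0.12 ± 0.21 and 0.25 ± 0.26 (SE).

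Seen across roles, 12 genes lay more than 1 log2 unit below the mean of the other arrays on the array numbered 3 in both genotypes, or 34.3% (2.62% of all genes). These were Me1, Elovl1, Elovl3, Elovl7, Far2, Awat1, Dgat2, Cidea, Acsbg1, Fabp5, Pparg and Mc5r. The matching rise was seen in 0 genes of the set (1.21% of all genes), and the nearest were Fads1 with 0.79 in WT and 1.37 in TG and Fabp4 with 1.60 and 0.91. In the plot of the genotypes' gaps against each other, Me1, Mc5r and Scd1 lie well above the line of equal gaps. In these genes WT array 3 was further below its group than TG array 3. Fads2 also lies well above the line, with gaps of 0.16 in WT and 1.71 in TG. Pparg, Far2, Acsbg1 and Apoc1 lie close to it.

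**Figure D3:**
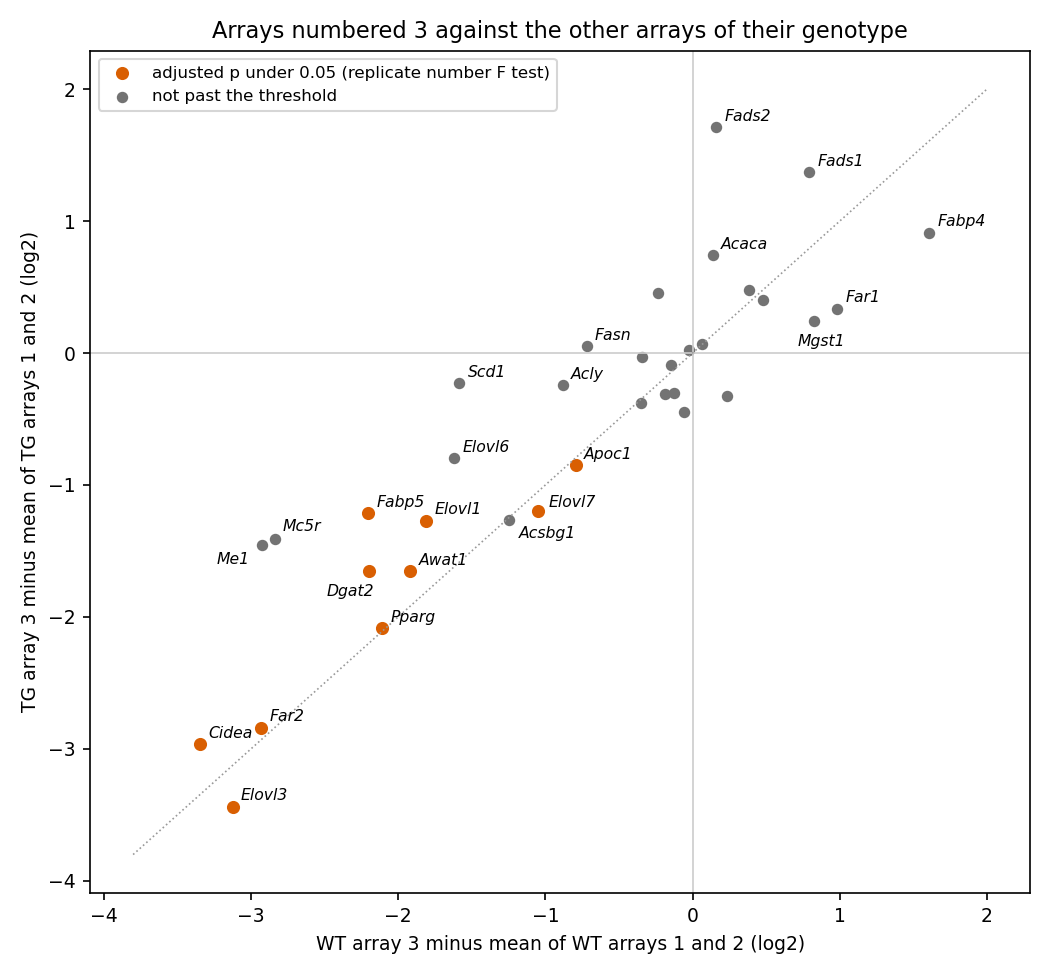
For each of the 35 genes, the log2 value of the array numbered 3 minus the mean of the other arrays of its genotype, WT across and TG upward. Elovl3, Cidea and Far2 lie near -3 on both axes, Fads1 and Fabp4 lie above 0 on both, the dotted line marks equal gaps, and orange points passed the F test of the replicate number.

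The same arrays differed in markers of other cells, and the part of those cells in these results was not tested. Of all genes, 34.5% were lowest on the array numbered 3 in both genotypes and 23.5% were highest. Among markers of the sebaceous gland and of the junctional zone beside it, 5 of 8 were lowest there in both genotypes, or 62.5%. The list mean read 8.41 and 8.35 on the arrays numbered 3 against 8.88 to 9.22 on the other arrays. Krt79, a keratin gene of the gland's duct, read 12.79, 12.54 and 10.16 in WT and 12.77, 13.04 and 10.67 in TG. Lgr6, of the same list, went the other way, at 8.87, 9.22 and 10.26 in WT and 9.45, 9.04 and 10.06 in TG. Plet1 and Gata6 were neither lowest nor highest there in both genotypes. Of 8 suprabasal epidermis markers 7 were lowest there in both genotypes, with a mean of 10.60 and 10.15 against 11.08 to 12.37. Of 6 T-cell markers 5 were, with a mean of 7.21 and 6.93 against 7.66 to 9.07. Of 8 macrophage and Langerhans cell markers 4 were, with a mean of 6.84 and 6.504 against 6.87 to 7.44. Ptprc, lowest there in both genotypes, was counted in both the T-cell list and the macrophage and Langerhans cell list.

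Endothelial markers ran the other way, as Fabp4 did: 6 of 8 were highest on the array numbered 3 in both genotypes (23.5% of all genes). Their mean was 6.27 and 6.33 there against 5.596 to 5.83 on the other arrays, the latter below the array medians of 5.90 to 5.99. Of 9 stem cell markers 3 were highest there in both genotypes (Cd34, Lgr5 and Nfatc1) and 2 were lowest (Itga6 and Krt14). These shares are 33.3% and 22.2%, against 23.5% and 34.5% of all genes. The stem cell markers' mean was 11.57 and 11.36 on the arrays numbered 3, 10.29 to 10.33 on WT arrays 1 and 2 and TG array 2, and 11.33 on TG array 1. Of 9 fat cell markers 3 were lowest on the array numbered 3 in both genotypes (Lpl, Pck1 and Cebpa), or 33.3%, near the 34.5% of all genes. In 1 marker it was highest (23.5% of all genes), and the list mean read 5.997 and 6.16 there against 6.23 to 6.35. Lpl and Cebpa passed the F test (adjusted p = 0.0278 and 0.0493 in limma), which 6.96% of all genes passed. Adipoq, the defining fat cell gene, read 4.78 to 4.91 over all arrays, below the array medians of 5.90 to 5.99, where a dip may not show. In bulk RNA, fewer cells of a type and less RNA per cell cannot be told apart. The TG minus WT difference was below 0 in 8 of 8 suprabasal and 6 of 6 T-cell markers (52.1% of all genes). The medians were -0.41 and -0.15, and 7 suprabasal markers were lower within each number (16.5% of all genes). Above 0 were 8 of 9 stem cell and 5 of 8 sebaceous and junctional markers (47.9% of all genes). Their medians were 0.29 and 0.14. No marker passed the adjusted threshold, and the part of these cells in the differences between genotypes was not tested.

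The genes low on the arrays numbered 3 also differed by a varying amount between TG arrays 1 and 2. Dgat2, Acsbg1, Me1 and Pparg were more than 1 log2 unit lower on TG array 1 than on TG array 2 (1.19% of all genes), at -1.41, -1.07, -1.02 and -1.01. Elovl1, Elovl7, Far2, Cidea and Mc5r followed at -0.84, -0.76, -0.69, -0.44 and -0.43. Elovl3, Awat1, Fabp5 and Apoc1 were within 0.20 of TG array 2 in either direction. Of the other genes lowest on the array numbered 3 in both genotypes, Elovl6, Fads3 and Acacb were at -0.55, -0.48 and -0.28. Plin2 went the other way, at 0.53. By the same measure 4 of 8 suprabasal markers were more than 1 unit lower (Lor, Flg2, Cdsn and Ivl), with the other 4 at -0.93 to -0.36. So were 4 of 6 T-cell markers (Cd3e, Cd3g, Cd3d and Ptprc, at -1.96 to -1.49) and 0 of 8 sebaceous and junctional markers, which ran from -0.97 for Gata6 to 0.41 for Lgr6. Ptprc was also on the macrophage and Langerhans cell list, as the 1 gene of 8 there more than 1 unit lower. The part of these cells in the values on TG array 1 was not tested.

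**Figure D4:**
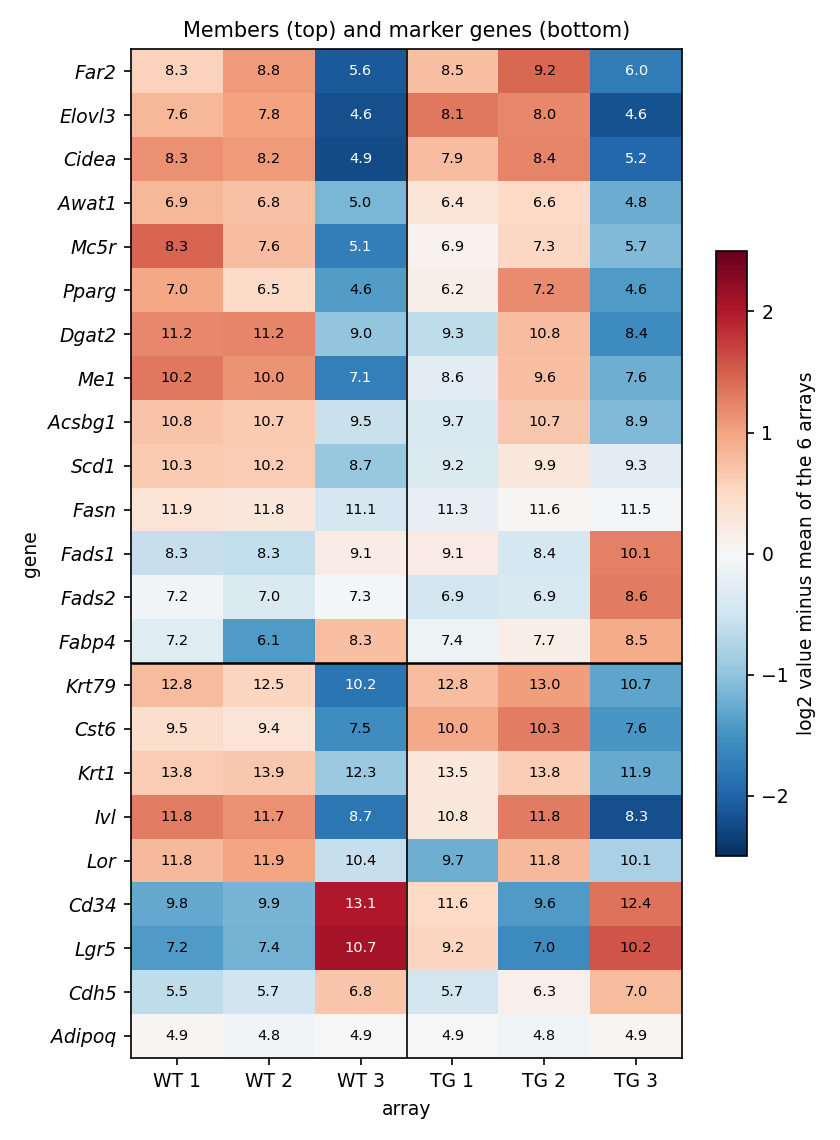
Log2 value (number in each cell) of 14 genes of the set above the line and 9 marker genes below it on the 6 arrays, coloured by the value minus the gene's mean over the arrays. Far2, Elovl3 and Cidea share their blue cells on WT 3 and TG 3 with Krt79, Cst6 and Ivl, where Cd34 and Lgr5 are red, and Adipoq is near white throughout. Lgr6, the sebaceous and junctional marker that went the other way, is not drawn. Also not drawn are the stem cell markers Itga6 and Krt14, lowest on the array numbered 3 in both genotypes, and Krt15, which varied little. The fat cell markers Lpl, Pck1 and Cebpa, lowest there too, are likewise left out. All Adipoq values lay below the array medians of 5.90 to 5.99, where a dip may not show.

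Other genes of lipid synthesis, 51 of 55 listed, were read from the same fit. None passed the adjusted threshold between TG and WT, the median difference was -0.046, and 22 lay above 0. At an unadjusted p under 0.05 there was 1 higher (1.93% of all genes) and 0 lower (0.843%). The 1 gene was Insig1, which encodes a sterol-sensing brake on lipogenic transcription and is itself a target of it. It read 8.03, 8.04 and 7.38 in WT and 9.17, 8.49 and 8.30 in TG. All TG arrays lay above all WT arrays, by 0.84 ± 0.29 (SE) or 1.79-fold (unadjusted p = 0.0235 and adjusted p = 0.99996 in limma, or adjusted p = 0.533 paired by number). Without TG array 1 the difference was 0.58, and 0 of these genes had an unadjusted p under 0.05.

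Of the lipogenic transcription factor genes, Srebf1 read 9.72, 9.61 and 8.72 in WT and 9.29, 9.43 and 9.12 in TG. Srebf2 stayed between 10.53 and 10.82. Rxra, the partner receptor of PPARs, differed by -0.33 ± 0.29 (SE). In the elongation cycle the dehydratase genes Hacd3 and Hacd1 differed by 0.30 ± 0.20 and 0.53 ± 0.58 (SE). In glycerolipid synthesis and droplet turnover the acyltransferase gene Gpat4 differed by 0.23 ± 0.15 (SE), and Hilpda, encoding a droplet protein that inhibits lipolysis, by 0.31 ± 0.22 (SE). Of the 51 genes, 31 were lowest on the array numbered 3 in both genotypes, or 60.8% (34.5% of all genes).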

How the data were processed

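Expression was measured on 6 arrays of hair follicle stem cells, 3 WT and 3 TG. The deposited values are log2 expression values that the authors made per transcript cluster, a scale read from the values (2.85 to 14.42, array medians 5.90 to 5.99). Transcriptome Analysis Console and Expression Console 1.4.1, both of Affymetrix, are listed in the submitters' processing notes without a role. For summarisation, scaling, log base and genome build the sources used here state nothing, and fold changes hold only for base 2. Depth does not apply to arrays, and their number limits the precision.

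Of 41345 features, 23521 had 1 symbol, 1814 several and 16010 none, and 23328 of the first matched a RefSeq table by gene ID with 0 symbols changed. The brightest feature per gene gave 22180 genes, with no filter on low values. TG was compared with WT in limma 3.58.1 (R 4.3.3, two-sided moderated test from lmFit and eBayes with no other term), and the replicate number by an F test with genotype as a term, both adjusted over all genes (Benjamini-Hochberg). Both were also run on simulated data with independent noise, each gene's SD capped at the median SD. That run does not show how either test behaves where whole arrays differ as these do. Over all genes, deviations from the genotype means correlated at 0.20, 0.67 and 0.74 between arrays numbered 1, 2 and 3. Each exceeded the limit of 0.1, so the numbers were used as pairs in an alternative fit; the pairing comes from this check and not from the labels, and WT array 1 correlated more with TG array 2 (0.50) than with TG array 1.

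Genes and lists were chosen with earlier results of these data known. Values on all arrays were given for the 2 genes of each role with the smallest p between genotypes, the 6 with the smallest p in the F test, and Pparg, Scd1, Fasn, Mc5r and Awat2, and for others of the set chosen after their values were seen. The 2 genes with the smallest p of each pathway list were named, and Srebf1 and Srebf2 were chosen after their values were seen. Alternatives were the replicate block, quantile normalization, the mean of a gene's features, genes above the median level, all features, array weights, no moderation and leaving out arrays. Groups of 3 arrays were too small for an outlier test.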

Additional observations from a re-analysis of the deposited data

How the results depend on the processing

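Between genotypes, 0 of the 35 genes and 0 of the 51 pathway genes passed the adjusted threshold in any of 14 alternatives. At an unadjusted p under 0.05 the counts of genes higher and lower in TG, 0 and 0 on all arrays, were 3 and 3 with the replicate block (4.59% and 3.86% of all genes), 5 and 8 with array weights (7.90% and 6.16%) and 2 and 6 without both arrays numbered 3 (3.32% and 2.60%). Leaving out 1 array gave 0 to 3 higher and 0 to 7 lower (0.843% to 2.61% and 0.451% to 2.17% of all genes). Across replicate numbers the 10 calls became 0 with all features and 0 with no moderation (7 instead of 21 at an unadjusted p under 0.05), and 0 to 15 with 1 array left out; over all genes these counts were 0, 0 and 0 to 2215, against 1544 on all arrays. The cause was not tested. The direction between genotypes changed for Fads2 (-0.11 with array weights, -0.21 without both arrays numbered 3), Awat2 (-0.16 and -0.069), Cidea (-0.14 and -0.11, and -0.0172 with quantile normalization) and Prdm1 (-0.013 with array weights). With 1 array left out the difference ranged from -1.47 to 0.039 for Me1, -0.76 to 0.039 for Scd1, -0.26 to 0.61 for Fads2, -0.87 to 0.16 for Elovl1, -0.80 to 1.39 for Elovl3, -0.60 to 0.23 for Elovl6, -0.61 to 0.18 for Elovl7, -0.67 to 1.25 for Far2, -0.92 to 0.27 for Awat1, -0.097 to 0.27 for Plin5, -1.10 to 1.002 for Cidea, -0.082 to 0.26 for Cd36, -0.38 to 0.77 for Fabp5, -0.74 to 0.66 for Pparg, -0.035 to 0.29 for Prdm1 and -1.29 to 0.30 for Mc5r. Of the 35 genes and Insig1, 19 kept their direction in all 14 alternatives that gave a value.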
